A study of Mus musculus with 11 samples.

Results

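The cytosolic ribosomal protein genes are those that encode the protein parts of the cytoplasmic ribosome. They were taken here as every probe set of the Affymetrix Mouse Genome 430 2.0 array annotated to exactly 1 gene with a ribosomal protein symbol (Rpl or Rps with a number, the paralogues ending in l, Rplp0, Rplp1, Rplp2 and Rpsa). The rule used symbols and no measured value. It found 100 probe sets of 46 genes, among 18194 genes named on the array, and 24 of the 46 belong to the large subunit and 22 to the small subunit. Of these, 23 genes had 1 probe set and 23 had 2 or more, up to 6. A signal of at least 200 on at least 3 of the 11 arrays was reached by 85 of the 100 probe sets and by 42 of the 46 genes. The 4 genes below that level were Rpl39l, Rpl3l, Rps16 and Rps27. A further 28 ribosomal protein genes, Rplp1, Rpl3, Rpl5 and Rpl10 among them, were named only by probe sets shared with another gene and were not analysed here.

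RNA was measured in cultured cells of the mouse oligodendrocyte lineage. Knockout oligodendrocytes (CKO, n = 3) had the genotype MRF fl/fl; Olig2 wt/cre, in which a Cre recombinase made from the Olig2 gene deletes both floxed copies of the myelin gene regulatory factor, now called Myrf. Control oligodendrocytes (n = 4) came from littermates with the genotype MRF wt/fl; Olig2 wt/cre, so the controls also carried the Cre and 1 floxed copy. Both were kept for 4 days without PDGF and with thyroid hormone (T3, 40 ng/ml). Oligodendrocyte progenitor cells (OPCs, n = 4) were kept for 6 days in PDGF-AA (10 ng/ml), and their label says control without a genotype. All cells were selected with antibody to PDGFRα from brains of postnatal day 7. Nothing in the labels says that the arrays of a group came from separate animals or cultures, so p-values measure the spread between these arrays, which may be technical.

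A ribosome has a small subunit, which reads the mRNA, and a large subunit, which joins the amino acids. Most ribosomal proteins are present in about equal number in it. Ribosomal protein mRNAs begin with a run of pyrimidines called the terminal oligopyrimidine (TOP) tract, through which the kinase mTOR and the binding protein Larp1 control their translation and stability. Myc raises transcription of genes for ribosome synthesis. OPCs in PDGF divide, and oligodendrocytes leave the cell cycle and make myelin.

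Signals were those of the MAS 5.0 algorithm, with every chip scaled to the same trimmed mean, so each value is relative to the rest of its array. Bulk RNA cannot tell fewer cells of a type from less RNA per cell. The single Myrf probe set gave 1904 to 2849 on CKO arrays, 6215 to 7517 on control arrays and 752 to 6848 on OPC arrays. Whether its probes fall inside the deleted part of the gene was not examined. The labelled cell types were checked against marker lists. The summed signal of 7 measured oligodendrocyte markers was 35592 to 41108 on CKO arrays, 68088 to 89699 on control arrays and 12267 to 50553 on OPC arrays, and that of 4 OPC markers was 18346 to 21007, 11352 to 15347 and 32060 to 41251 on CKO, control and OPC arrays. Single markers did not all follow these sums. Mag was at 95.3 to 639 on CKO and 11997 to 14251 on control arrays, and Mbp at 15944 to 18058 and 18665 to 22311. Among OPC markers, Gpr17 was at 10016 to 13929 on CKO, 5442 to 7661 on control and 4275 to 16882 on OPC arrays. Pdgfra was at 1316 to 1665, 1742 to 3532 and 6309 to 19102 on CKO, control and OPC arrays. Astrocyte markers summed to 71343 to 75733, 46071 to 63524 and 1345 to 6070 in the same order, with 7 of 7 at 200 or more on every oligodendrocyte array. None of the 7 microglial markers reached 200 on any array. OPC replicates 1 and 4 stood apart in the ratio of 5′ to 3′ probe set signals of Gapdh, at 0.332 and 0.12, against 1.23 and 1.15 on OPC replicates 2 and 3 and 1.26 to 1.41 on the oligodendrocyte arrays. Counts over the members, the subunits and the companion lists against OPCs are therefore also given without OPC replicates 1 and 4, and so are some of the genes whose value or call changed without them.

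The DNA around the transcription start is shown for 10 members, because mRNAs of this family are known for the TOP tract at their first bases. They are members named below, with Rps10 as one that did not pass when all OPC arrays were used. The RefSeq promoter table (GRCm38.p6) held 48 starts of 40 of the 46 genes. A window of 10 bases before and 20 bases after the start was searched on the gene strand for 3 pyrimidine motifs, which can overlap one another. The first was CTTTC, the second, found in 16.7% of member windows and 3.9% of all windows, was CTCTT, and the last, found in 10.4% and 6.36%, was CTTCC. At least 1 of these was found in 17 of 48 member windows (35.4%), against 4125 of 32851 windows of all genes (12.6%). CTTTC alone was in 22.9% of member windows and 3.74% of all windows. Capitals mark the matching letters, and the windows run 5′ to 3′ on the gene strand.
Rps6, chr4:86857348-86857377, minus strand: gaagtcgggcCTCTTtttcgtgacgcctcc
Rpl14, chr9:120571507-120571536, plus strand: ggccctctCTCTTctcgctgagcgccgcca
Rps25, chr9:44407704-44407733, plus strand: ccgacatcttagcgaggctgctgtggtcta
Rpl27a, chr7:109519185-109519214, plus strand: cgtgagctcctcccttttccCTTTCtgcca
Rpsa, chr9:120127756-120127785, plus strand: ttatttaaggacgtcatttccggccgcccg
Rplp0, chr5:115559457-115559486, plus strand: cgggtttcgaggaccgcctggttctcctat
Rplp2, chr7:141447641-141447670, plus strand: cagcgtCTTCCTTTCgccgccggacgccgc
Rps18, chr17:33955646-33955675, minus strand: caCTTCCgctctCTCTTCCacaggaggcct
Rpl35, chr2:39005112-39005141, minus strand: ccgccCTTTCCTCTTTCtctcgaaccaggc
Rps10, chr17:27635225-27635254, minus strand: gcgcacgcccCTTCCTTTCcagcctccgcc
Rps25, Rpsa and Rplp0 held none of the letters searched in this window, which says nothing of the factors that act there. In the whole 300 bases (250 before and 50 after the start), CCGGAAG on either strand, the core letters bound by Ets factors such as Gabpa, was in 41.7% of member promoters and 8.86% of all promoters. CACGTG, the E-box letters bound by Myc, was in 10.4% of member promoters and 7.15% of all. TATAAA on the gene strand was in 8.33% and 8.32%. A match is a description of letters and not of a bound site.

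Ribosomal protein mRNAs were lower in oligodendrocytes of both genotypes than in OPCs, in both subunits. Control oligodendrocytes had 34 of 42 members lower than OPCs and 0 higher (limma, adjusted p under 0.05 over 10069 genes), where 29.6% of all genes tested were lower and 24.4% higher. CKO oligodendrocytes had 37 of 42 lower and 0 higher, where 26.8% of all genes were lower and 23.8% higher. The median log2 difference over the 42 members was -0.66 for control oligodendrocytes minus OPCs, against -0.09 over all genes, and -0.90 for CKO oligodendrocytes minus OPCs, against -0.05 over all genes. Both comparisons use the same 4 OPC arrays.

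In 28 of 42 members every control oligodendrocyte array lay below every OPC array, and in 37 of 42 every CKO array did. Over all genes tested, 23.7% and 26.4% were lower without overlap in those comparisons. The large subunit had 17 of 22 genes lower in control oligodendrocytes and 18 of 22 lower in CKO oligodendrocytes. The small subunit had 17 of 20 and 19 of 20 lower. These counts were 20 of 22 for the large and 20 of 20 for the small subunit in both comparisons without OPC replicates 1 and 4. With quantile normalization, described below, the large subunit had 10 of 22 lower in control and 11 of 22 in CKO oligodendrocytes. The small subunit then had 11 of 20 and 14 of 20 lower, where 30.3% and 29% of all genes were lower. The median member signal per array was 9500 to 12101 on CKO arrays, 11413 to 15700 on control arrays and 15606 to 27965 on OPC arrays.

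**Figure D1:**
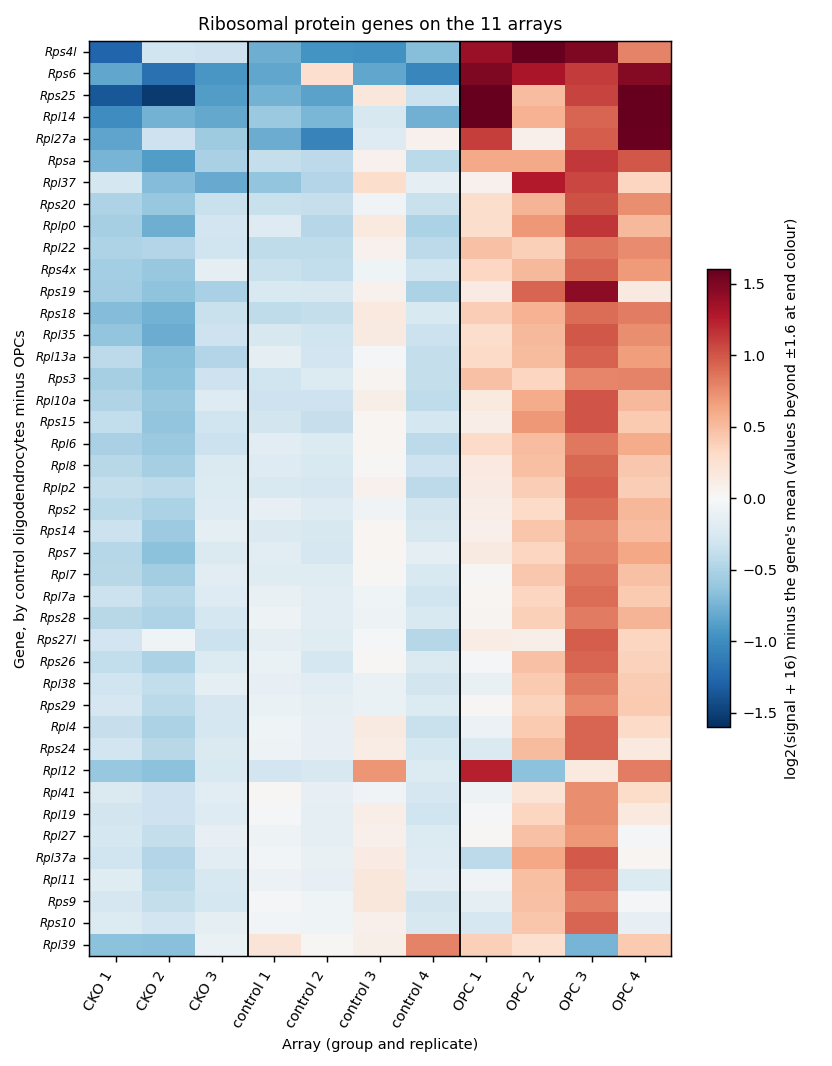
Each of the 42 ribosomal protein genes (down) on each of the 11 arrays (across), as log2(signal + 16) minus that gene's mean over the arrays, with blue below and red above the mean. CKO arrays are mostly blue, control arrays pale and OPC arrays mostly red, and OPC 3 is the highest OPC array for 33 genes.

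The size of this difference depended on the scaling. When the log2 values were quantile normalized, which gives every array the same set of values, 21 of 42 members were lower in control oligodendrocytes than in OPCs and 25 of 42 lower in CKO oligodendrocytes, with medians of -0.30 and -0.42, where 30.3% and 29% of all genes were lower. With that scaling 8 of 42 members were positive in control oligodendrocytes minus OPCs, against 1 of 42 on the deposited scale. The highest signal of any probe set ran from 22057 to 26673 on oligodendrocyte arrays and from 25749 to 44875 on OPC arrays, and its part in the result was not tested. Without OPC replicates 1 and 4, 40 of 42 members were lower in each comparison, with medians of -0.86 and -1.07, where 21.5% and 20% of all genes were lower. OPC replicates 2 and 3, which remain in that fit, had Mbp, a main myelin protein, at 19380 and 15042, against 1338 and 1587 on OPC replicates 1 and 4. On OPC replicate 2 the summed signal of dividing-cell markers was 32433, against 115840 to 142500 on the other OPC arrays, and Gpr17, a marker of committed progenitors, was at 16882, against 4275 to 7624. Astrocyte markers, whose sums are given above, were far lower in OPCs than in oligodendrocytes of either genotype, with 2 or 3 of 7 at 200 or more on each OPC array. The part of these markers in the differences from OPCs was not tested.

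The P stalk of the large subunit recruits the elongation factors, and Rplp0 anchors it. Rplp0 (1419441_at) had signals of 10666, 8969 and 12420 on CKO arrays, 13398, 11200, 17112 and 10813 on control arrays, and 18677, 24816, 34091 and 22155 on OPC arrays. Every OPC array was above every oligodendrocyte array. The log2 difference was -0.91 ± 0.20 (SE, adjusted p = 0.00252) for control oligodendrocytes minus OPCs and -1.20 ± 0.21 (adjusted p = 0.000813) for CKO oligodendrocytes minus OPCs. Rplp2, a stalk protein that binds Rplp0 as a dimer with Rplp1, gave 14320, 14022 and 16053 on CKO arrays, 15775, 15572, 19662 and 14032 on control arrays, and 20422, 24538, 36216 and 24599 on OPC arrays. Its groups did not overlap between oligodendrocytes and OPCs either. It differed by -0.68 ± 0.17 (adjusted p = 0.00489) in control and -0.81 ± 0.18 (adjusted p = 0.00304) in CKO oligodendrocytes relative to OPCs. With quantile normalization Rplp2 no longer passed in either comparison (log2 differences of -0.19 and -0.20).

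Rpsa, a small-subunit protein also known as the laminin receptor, had the largest fall in both comparisons among the 34 members whose mean signal was 5000 or more. Its signals were 9091, 8211 and 10614 on CKO arrays, 11660, 11364, 16016 and 11304 on control arrays, and 23295, 23133, 33438 and 30363 on OPC arrays. No oligodendrocyte array reached the lowest OPC array, and CKO and control arrays did not overlap. Rpsa differed by -1.13 ± 0.16 (adjusted p = 0.000179) in control and -1.55 ± 0.17 (adjusted p = 3.67e-05) in CKO oligodendrocytes relative to OPCs. Rps6, the small-subunit protein that S6 kinase phosphorylates, gave 728, 562 and 680 on CKO arrays, 728, 1574, 729 and 626 on control arrays, and 3713, 3271, 2858 and 3664 on OPC arrays. Control replicate 2 was the high oligodendrocyte array. Its log2 difference was -1.96 ± 0.25 (adjusted p = 8.98e-05) in control and -2.33 ± 0.28 (adjusted p = 4.79e-05) in CKO oligodendrocytes relative to OPCs.

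**Figure D2:**
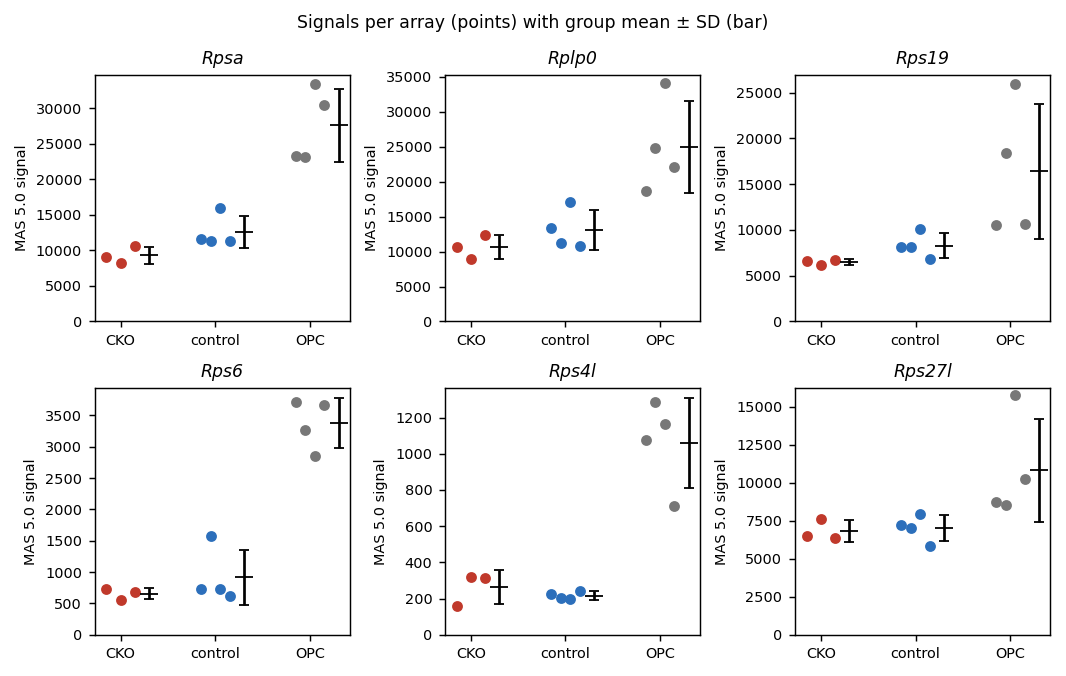
MAS 5.0 signal (linear axis from 0) of 6 ribosomal protein genes on CKO, control and OPC arrays, as points per array, with the group mean ± SD as a bar. In all 6 genes every OPC point lies above every oligodendrocyte point, and for Rpsa and Rps19 the CKO points lie below the control points.

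Rps19 and Rps14 are small-subunit proteins whose human genes are linked to anaemias with failing red cell production. Rps19 had signals of 6560, 6191 and 6746 on CKO arrays, 8136, 8103, 10143 and 6774 on control arrays, and 10572, 18453, 25998 and 10654 on OPC arrays. OPC replicates 2 and 3 were far above OPC replicates 1 and 4, which sat just above the highest control array. It differed by -0.89 ± 0.26 (adjusted p = 0.0118) in control and -1.23 ± 0.28 (adjusted p = 0.00337) in CKO oligodendrocytes relative to OPCs, and by -1.42 and -1.75 without OPC replicates 1 and 4. Rps14 averaged 14546 ± 2187 on CKO arrays (SD, n = 3), 16386 ± 1689 on control arrays (SD, n = 4) and 25553 ± 4904 on OPC arrays (SD, n = 4). Its log2 differences were -0.63 in control and -0.80 in CKO oligodendrocytes relative to OPCs (adjusted p = 0.00465 and 0.00179). These became -0.13 and -0.18 with quantile normalization and no longer passed.

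Rpl11 is a large-subunit protein that joins the ribosomal RNA called 5S and can bind Mdm2, the ubiquitin ligase of p53. It gave 9809, 8296 and 9393 on CKO arrays, 10477, 10202, 12664 and 9878 on control arrays, and 10815, 15692, 21025 and 9629 on OPC arrays. OPC replicates 1 and 4 lay among the oligodendrocyte arrays, and OPC replicates 2 and 3 above them. Rpl11 did not pass in either comparison (log2 difference of -0.34, adjusted p = 0.194, in control and -0.57, adjusted p = 0.0543, in CKO oligodendrocytes). Without OPC replicates 1 and 4 it was lower in both, with log2 differences of -0.76 (adjusted p = 0.00415) and -0.99 (adjusted p = 0.00146). Rpl13a, a large-subunit gene that also hosts small nucleolar RNAs, averaged 13716 ± 1283 on CKO arrays, 17015 ± 1935 on control arrays and 30327 ± 5693 on OPC arrays (SD, n = 3, 4 and 4). It differed by -0.82 (adjusted p = 0.000589) in control and -1.13 (adjusted p = 0.000118) in CKO oligodendrocytes, on a probe set with the suffix _x_at. Of its probe sets without that suffix, each tested on its own, 1417608_a_at gave -0.34 and -0.55 and did not pass (adjusted p = 0.266 and 0.104), and 1433928_a_at gave -1.76 and -1.83 and passed (adjusted p = 6.28e-05 and 8.79e-05). Rpl22, which mice need to make T cells of the αβ class, averaged 9802 ± 674 on CKO arrays, 10868 ± 1999 on control arrays and 20354 ± 3168 on OPC arrays (SD, n = 3, 4 and 4). Its log2 differences were -0.91 (adjusted p = 0.00042) and -1.04 (adjusted p = 0.000288). Its other probe sets were also tested on their own. There 1448398_s_at gave -0.37 (adjusted p = 0.0357) and -0.20 (adjusted p = 0.257), so it did not pass in CKO oligodendrocytes. The third, 1416603_at, gave -0.94 and -1.07 and passed (adjusted p = 0.0002997 and 0.0002386).

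Several members have paralogues, which can stand in for each other in the ribosome. Rps4l, the paralogue of the X-linked Rps4x, gave 158, 320 and 316 on CKO arrays, 226, 200, 197 and 244 on control arrays, and 1076, 1284, 1165 and 710 on OPC arrays. All oligodendrocyte arrays were far below all OPC arrays. It had the largest fall of any member in control oligodendrocytes relative to OPCs, of -2.18 ± 0.25 (adjusted p = 3.64e-05), and differed by -1.97 ± 0.27 (adjusted p = 0.000126) in CKO oligodendrocytes. Rps4x gave 12553, 12071 and 16428 on CKO arrays, 14344, 13931, 17510 and 14747 on control arrays, and 23154, 26374, 34912 and 29436 on OPC arrays. Its groups were also apart, by -0.90 ± 0.15 (adjusted p = 0.000429) and -1.05 ± 0.16 (adjusted p = 0.00026).

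Rps27l, the paralogue of Rps27 that p53 induces, gave 6484, 7626 and 6342 on CKO arrays, 7247, 7034, 7928 and 5847 on control arrays, and 8738, 8534, 15742 and 10230 on OPC arrays. OPC replicate 3 stood high and the other OPC arrays were close above the oligodendrocyte arrays. Its log2 difference was -0.59 ± 0.19 (adjusted p = 0.0207) in control and -0.62 ± 0.20 (adjusted p = 0.0235) in CKO oligodendrocytes. The call in CKO oligodendrocytes was lost when CKO replicate 1 or CKO replicate 3 was left out (adjusted p = 0.0738 and 0.075), and that in control oligodendrocytes without control replicate 4 (adjusted p = 0.0633). Rps27 itself was listed at 95.9 to 206, Rpl39l, which is best known from testis, at 4.4 to 44.5, Rpl3l, which is best known from muscle, at 2.1 to 39.4, and Rps16 at 1.4 to 4.5. None of these 4 entered the tests. Rpl22l1 and Rpl7l1, paralogues outside the rule, were both lower, with log2 differences of -0.76 and -0.60 in control and of -1.01 and -0.61 in CKO oligodendrocytes relative to OPCs (adjusted p from 0.00296 to 0.00925).

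Rps25, Rpl14 and Rpl27a were also among the largest falls and were measured at low signals. Rps25, a small-subunit protein that several viral mRNAs need to start translation, gave 219, 193 and 310 on CKO arrays, 340, 318, 670 and 459 on control arrays, and 2209, 831, 1262 and 2572 on OPC arrays. The 3 groups did not overlap. It differed by -1.83 ± 0.35 (adjusted p = 0.00112) in control and by -2.65 ± 0.38 (adjusted p = 0.00017) in CKO oligodendrocytes, the largest fall of any member in that comparison. Rpl14, a large-subunit protein, gave 302, 360 and 345 on CKO arrays, 405, 367, 513 and 356 on control arrays, and 1940, 913, 1193 and 2199 on OPC arrays. OPC replicates 1 and 4 were the high ones here, as they were for Rps25. The log2 differences were -1.82 ± 0.26 (adjusted p = 0.000168) and -2.08 ± 0.28 (adjusted p = 0.000113). With OPC replicates 1 and 4 left out, Rps25 differed by -1.23 and -2.05 and Rpl14 by -1.33 and -1.596, all past the threshold. Rpl27a gave 151 to 221 on CKO arrays, 127 to 298 on control arrays and 301 to 881 on OPC arrays. It differed by -1.44 (adjusted p = 0.00347) and -1.52 (adjusted p = 0.00421).

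Rpl37 had 924 to 1332 on CKO arrays, 1044 to 1978 on control arrays and 1708 to 3951 on OPC arrays. Its log2 difference was -0.93 (adjusted p = 0.0158) in control and -1.28 (adjusted p = 0.00471) in CKO oligodendrocytes. The call in control oligodendrocytes was lost without control replicate 1 (adjusted p = 0.051). The differences were -1.41 and -1.77 without OPC replicates 1 and 4. Rps20 in control oligodendrocytes (-0.93, adjusted p = 0.000436) and Rps18 in CKO oligodendrocytes (-1.27, adjusted p = 0.000123) completed the 8 largest falls. The 8 members whose probe sets averaged under 5000 over all arrays (Rpl39, Rpl27a, Rpl12, Rps4l, Rpl14, Rps25, Rps6 and Rpl37) had a median of -1.63 in control and -1.74 in CKO oligodendrocytes relative to OPCs. The 34 others had medians of -0.62 and -0.84, with 28 and 31 lower. Of the 8 dim members, 6 were lower in each comparison. Over all genes, 29.6% and 26.8% were lower.

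**Figure D3:**
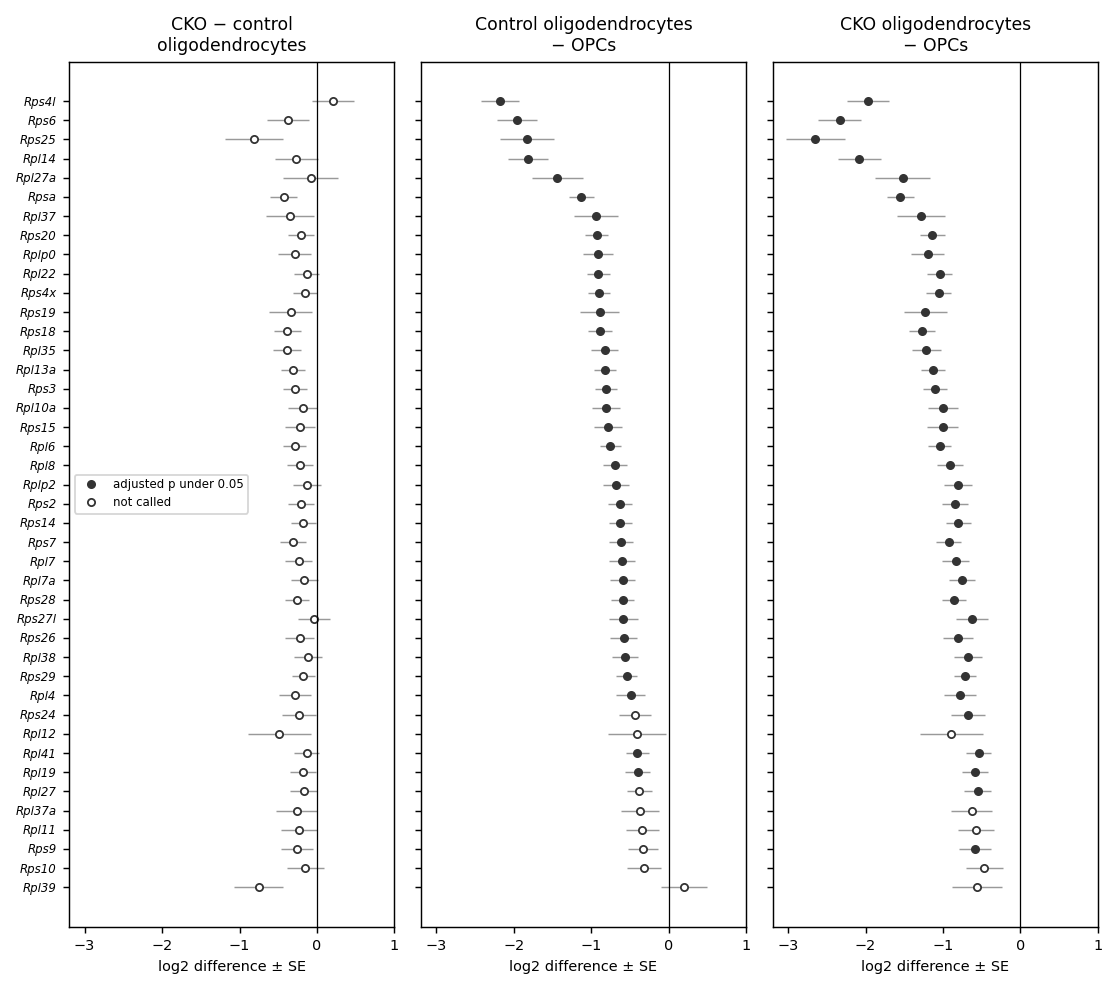
Log2 difference ± SE of each of the 42 ribosomal protein genes in the 3 comparisons, with filled points for adjusted p under 0.05 (limma). All points of CKO minus control are open, 34 of control minus OPC and 37 of CKO minus OPC are filled, and all filled points lie below 0.

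The members that did not pass in control oligodendrocytes were Rps24, Rpl12, Rpl27, Rpl37a, Rpl11, Rps9, Rps10 and Rpl39. In CKO oligodendrocytes they were Rpl12, Rpl37a, Rpl11, Rpl39 and Rps10. Without OPC replicates 1 and 4 all 20 small-subunit members were lower in both comparisons, Rps24, Rps9 and Rps10 among them. So were 20 of 22 large-subunit members in each, where 21.5% and 20% of all genes were lower. Rpl39, which lines the exit tunnel of the large subunit, gave 116, 115 and 178 on CKO arrays, 225, 195, 206 and 347 on control arrays, and 255, 235, 109 and 262 on OPC arrays. OPC replicate 3 was the low OPC array. Rpl39 was the only member with a positive difference between control oligodendrocytes and OPCs, of 0.20 ± 0.30 (adjusted p = 0.599), and the value was -0.08 without OPC replicate 3 and 0.51 (adjusted p = 0.264) without OPC replicates 1 and 4. In CKO oligodendrocytes it differed by -0.56 (adjusted p = 0.166), and without OPC replicate 3 by -0.83 (adjusted p = 0.0246). Rpl12, which sits at the base of the stalk, gave 201 to 273 on CKO arrays, 261 to 544 on control arrays and 201 to 796 on OPC arrays, and the groups overlapped.

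Some probe sets of a gene were far lower on OPC replicates 1 and 4 than on the other OPC arrays, while others of the same gene were less so. Of the 85 member probe sets kept, 68 had a lower mean on OPC replicates 1 and 4 than on OPC replicates 2 and 3, with a median log2 difference of -0.35 and a range from -2.70 to 1.89, against a median of 0.06 over all genes. In 37 of the 85 both arrays lay below both others, and in 12 both lay above. These counts were not taken over all genes. Rps24 (1436064_x_at), a small-subunit protein, gave 12656, 20983, 28310 and 16529 on OPC replicates 1 to 4, while another of its probe sets, 1428530_x_at, gave 2949, 19534, 22875 and 3553. On the 7 oligodendrocyte arrays these probe sets ran from 10847 to 16026 and from 7922 to 12171. The probe set of Rps15 used for the gene (1416088_a_at) gave 12303, 18551, 23023 and 15251 on OPC replicates 1 to 4, and its other probe set (1416089_at) gave 4252, 13266, 18775 and 3923. The used probe set differed by -0.78 in control oligodendrocytes minus OPCs, and the other by 0.18. The 5′ to 3′ ratio of Gapdh was low on OPC replicates 1 and 4, and its part in these probe sets was not tested.

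**Figure D4:**
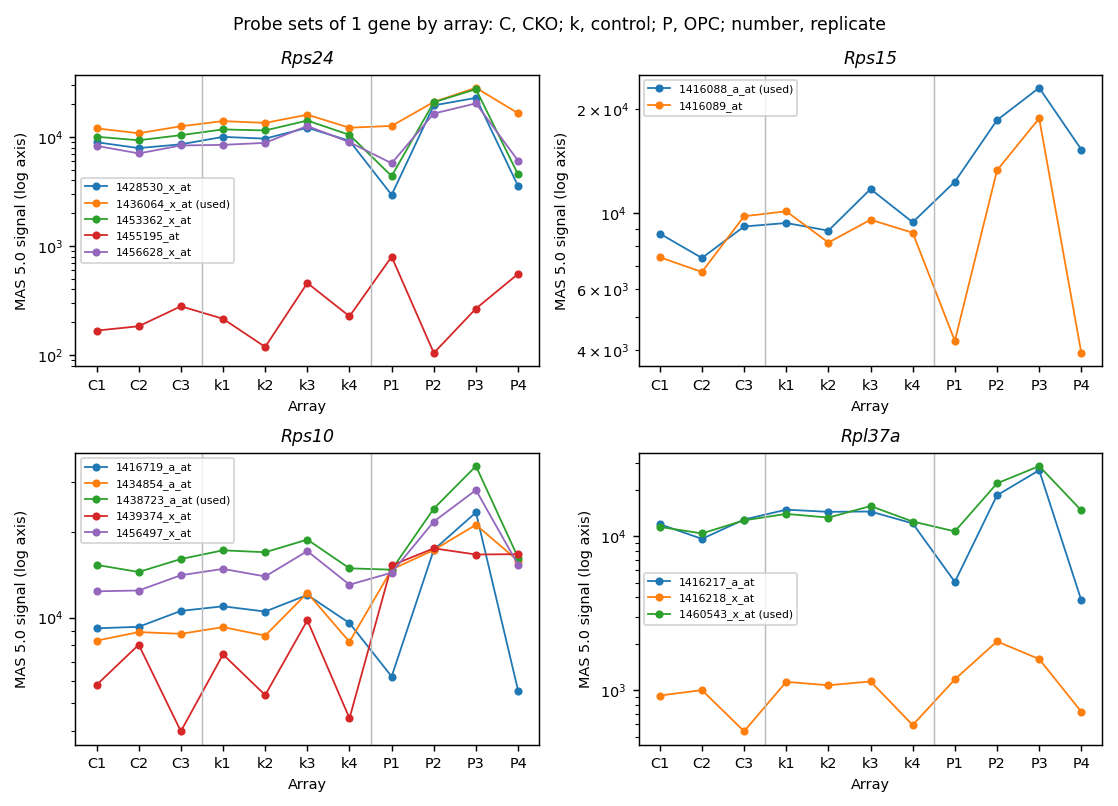
MAS 5.0 signal (log axis) of every kept probe set of Rps24, Rps15, Rps10 and Rpl37a on each array (C, CKO; k, control; P, OPC), with the probe set that stood for the gene marked as used. In each gene at least 1 probe set drops on OPC 1 and OPC 4, to 2949 and 3553 for 1428530_x_at of Rps24, while another does not drop as far.

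Of the 19 members with 2 or more kept probe sets, the log2 differences spanned more than 1 in 4 genes for control oligodendrocytes minus OPCs and in 3 genes for CKO oligodendrocytes minus OPCs. These were Rps9 (-2.29 to -0.33), Rpl13a (-1.76 to -0.34), Rps10 (-1.36 to -0.02) and Rpl41 (-1.29 to -0.27) in the comparison of control oligodendrocytes with OPCs. Their probe sets all lay below 0. The sign differed between probe sets in 3 genes, Rps24, Rps15 and Rpl37a. Rps9 1434624_x_at varied widely among oligodendrocyte arrays, at 6583, 3387 and 120 on CKO arrays and 6130, 4915, 6640 and 368 on control arrays. Of the 100 member probe sets, 43 carry the suffix for probes that can match several transcripts, and ribosomal protein genes have many near-identical pseudogene copies, so RNA of a copy cannot be told apart from that of the gene in these signals. When every kept probe set was tested on its own, 56 of 85 member probe sets were lower in control oligodendrocytes and 64 of 85 in CKO oligodendrocytes relative to OPCs, where 25.5% and 23.3% of all probe sets were lower.

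Between knockout and control oligodendrocytes nearly all ribosomal protein genes had slightly lower values in the knockout, and none passed the test without pairing. The log2 difference was negative for 41 of 42 members, with a median of -0.23, against 0.03 over all genes. None of the 42 passed (limma, adjusted p under 0.05), and 3 had an unadjusted p under 0.05, where 21.2% of all genes did. Over all genes, 3.88% were lower and 3.64% higher. The OPC arrays also entered the estimate of spread in this fit. Fitting only the CKO and control arrays gave 0 called, where 7.47% of all genes were lower and 8.29% higher. In that fit 12 of 42 had an unadjusted p under 0.05, and 9 did with quantile normalization. The share of all genes with such a p was not counted in those fits. CKO arrays lay below control arrays without overlap for 8 of 42 members, where 14.2% of all genes did so. No member was higher without overlap. With quantile normalization the median was -0.145, against -0.001 over all genes, with 39 of 42 members negative and 0 called.

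Same-numbered CKO and control arrays deviated together over all genes. Some unlike-numbered arrays did too, as CKO 3 correlated at 0.328 with control 4 and at 0.214 with control 3. With the replicate number as a block, which uses the 3 numbers both groups have, 15 of 42 members were lower in CKO oligodendrocytes and 0 higher. In that fit 9.24% of all genes were lower. It left out the OPC arrays and control replicate 4, so it differs from the first fit in more than the pairing. With only the CKO and control arrays and no block, 0 members were called. This pairing rests on the data, since the labels do not say what a replicate number marks. The 15 were Rps25, Rpsa, Rpl35, Rps19, Rps18, Rpl4, Rplp0, Rpl13a, Rpl6, Rps9, Rps3, Rps7, Rpl37a, Rps24 and Rps28. Within the 3 same-numbered pairs, 40, 39 and 41 of 42 members were lower in CKO, with medians of -0.25, -0.30 and -0.31. Control replicate 4, which has no same-numbered CKO array, was the lowest control array for 30 of 42 members. Leaving it out of the fit without the block gave a median of -0.268. Lower in all 3 pairs were 37 of 42 members, against 27.2% of all genes. The summed signal of 16 measured markers of dividing cells was 7654 to 9374 on CKO arrays and 11503 to 26519 on control arrays, that of 9 markers of smooth muscle cells, pericytes and fibroblasts was 4747 to 8238 and 986 to 2868, and that of astrocyte markers was given above. Their part in the difference was not tested.

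The 3 largest differences, none of which passed without the block, were those of Rps25, Rpl39 and Rpl12. Rps25, with the signals given above, differed by -0.81 ± 0.38 (adjusted p = 0.238), and by -0.78 ± 0.18 (adjusted p = 0.0262) with the block. Rpl39 differed by -0.75 ± 0.32 (adjusted p = 0.198) with no overlap between the groups, and by -0.58 (adjusted p = 0.114) with the block. Rpl12 differed by -0.48 ± 0.40 (adjusted p = 0.542), where control replicate 3 was high at 544 against 261, 270 and 279 on the other control arrays.

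Rpsa, without overlap between CKO and control arrays, differed by -0.43 ± 0.17 (adjusted p = 0.179), and by -0.47 ± 0.09 (adjusted p = 0.0173) with the block. Rps19 had -0.34 ± 0.28 (adjusted p = 0.539), and -0.43 ± 0.11 (adjusted p = 0.0328) with the block. Rplp0 had -0.29 ± 0.21 (adjusted p = 0.494), and -0.37 ± 0.09 (adjusted p = 0.029) with the block. Rpl13a had -0.31 ± 0.15 (adjusted p = 0.27), and -0.36 ± 0.08 (adjusted p = 0.0268) with the block. These 4 genes passed in the paired fit only.

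Rpl35, a protein at the mouth of the exit tunnel, differed by -0.39 ± 0.18 (adjusted p = 0.255), and by -0.44 ± 0.09 (adjusted p = 0.0172) with the block. Its signals were 9653, 8625 and 11867 on CKO arrays and 12486, 11973, 16439 and 11751 on control arrays, so CKO replicate 3 was just above the lowest control array. Rplp2 (-0.13), Rps14 (-0.18), Rpl22 (-0.13), Rpl11 (-0.23), Rps4x (-0.15) and Rps6 (-0.37) passed in neither fit. Rps27l differed by -0.04 ± 0.20 (adjusted p = 0.946). Rps4l was the only member with a positive value, of 0.21 ± 0.27 (adjusted p = 0.714).

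Individual arrays set much of the spread among members. Control replicate 3 was the highest control array for 36 of 42 members, OPC replicate 3 the highest OPC array for 33 and CKO replicate 3 the highest CKO array for 33, while CKO replicate 2 was the lowest CKO array for 36. Control replicate 4 was the lowest control array for 30 and OPC replicate 1 the lowest OPC array for 29. Control replicate 3 also had the highest summed signal of dividing-cell markers among control arrays, at 26519, and the lowest of astrocyte markers, at 46071. Without control replicate 3 the median of CKO minus control was -0.16, and without control replicate 4 it was -0.268. The median SD of a member over the arrays of a group was 0.15 in CKO, 0.18 in control and 0.35 in OPC cultures on the log2 scale, against 0.20, 0.22 and 0.39 over all genes.

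Members followed a common profile over the 11 arrays, which fall into 3 groups. The Pearson correlation of a member with the mean of the 42 centred members, each of which is part of that mean, had a median of 0.96 and was over 0.9 for 27 of 42 members. The lowest were Rpl39 (0.11), Rpl12 (0.51) and Rps10 (0.73). Outside the family, the 8 most similar genes were Rbm28 (0.99), Ybx1 (0.99), Cdk2ap1 (0.99), Rps3a1 (0.99), Npm1 (0.98), Kif2a (0.98), Simc1 (0.98) and Eef1b2 (0.98). Rps3a1 is itself a small-subunit ribosomal protein whose symbol the rule does not match, Rbm28 and Npm1 are nucleolar proteins, Ybx1 binds mRNA and Eef1b2 is a translation elongation factor subunit. Rps3a1 gave 13682, 12908 and 17091 on CKO arrays, 16275, 15827, 20751 and 15864 on control arrays, and 21636, 26546, 36980 and 26670 on OPC arrays. The arrays share their group, scaling and RNA quality, so these values describe the arrays only.

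Most tested genes for ribosome assembly were also lower in oligodendrocytes of both genotypes with all OPC arrays, but without OPC replicates 1 and 4 only in CKO oligodendrocytes. Of 43 tested genes for ribosome assembly and the nucleolus, 25 were lower and 2 higher in control oligodendrocytes than in OPCs (median -0.64), and 29 were lower and 1 higher in CKO oligodendrocytes (median -0.89). The shares lower were 58.1% and 67.4%, against 29.6% and 26.8% of all genes. Without OPC replicates 1 and 4, 12 of 43 were lower in control oligodendrocytes (27.9%, against 21.5% of all genes) and 24 of 43 in CKO oligodendrocytes (55.8%, against 20%). Npm1, a nucleolar chaperone, averaged 7121 ± 1179 on CKO arrays, 9640 ± 1862 on control arrays and 20977 ± 4614 on OPC arrays (SD, n = 3, 4 and 4), with log2 differences of -1.11 (adjusted p = 0.00044) in control and -1.54 (adjusted p = 8.45e-05) in CKO oligodendrocytes. The largest falls in control oligodendrocytes were Tsr1 (-1.45, adjusted p = 0.00886), needed to mature the small subunit, Rrp15 (-1.38, adjusted p = 0.000649), a pre-ribosome protein, and Ddx21 (-1.32, adjusted p = 0.000366), a nucleolar helicase. Sbds, which helps release Eif6 from the new large subunit, was higher, at 3130 ± 272 on CKO arrays and 3441 ± 204 on control arrays against 1067 ± 434 on OPC arrays (log2 difference of 1.75, adjusted p = 0.000101, in control and 1.62, adjusted p = 0.00031, in CKO oligodendrocytes). Imp3, which helps cleave the precursor of ribosomal RNA, was higher in control oligodendrocytes (0.62, adjusted p = 0.0375). Neither Tsr1 (-0.70, adjusted p = 0.078) nor Imp3 (0.22, adjusted p = 0.294) passed in control oligodendrocytes when those 2 OPC arrays were left out.

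RNA polymerase I, which makes ribosomal RNA, and its partners had 6 of 13 genes lower in control and 7 of 13 lower in CKO oligodendrocytes than in OPCs, with 0 higher. These are 46.2% and 53.8%, against 29.6% and 26.8% of all genes. Without OPC replicates 1 and 4 they were 3 of 13 (23.1%, against 21.5% of all genes) and 6 of 13 (46.2%, against 20%). Taf1d, a subunit of its selectivity factor, differed by -1.62 (adjusted p = 0.000214) in control and -1.90 (adjusted p = 0.000125) in CKO oligodendrocytes. Polr1c, a polymerase subunit, differed by -1.51 (adjusted p = 0.000229) and -1.95 (adjusted p = 6.89e-05). Other mRNAs known to carry a TOP tract had 13 of 19 lower in each comparison and 0 higher, with medians of -0.48 in control and -0.58 in CKO oligodendrocytes. That is 68.4% lower in each, against 29.6% and 26.8% of all genes. Without OPC replicates 1 and 4 the counts were 16 of 19 (84.2%, against 21.5%) and 18 of 19 (94.7%, against 20%). With quantile normalization they were 8 of 19 in each (42.1%, against 30.3% and 29%). Eef1d, a subunit of the elongation factor exchange complex, differed by -1.24 (adjusted p = 0.000373) and -1.46 (adjusted p = 0.000215), and Eif3f, an initiation factor subunit, by -0.96 (adjusted p = 0.000222) and -1.15 (adjusted p = 0.000115).

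Initiation factors had 12 of 22 lower (54.5%, against 29.6% and 26.8% of all genes) and 1 higher in each comparison. Without OPC replicates 1 and 4, 7 of 22 were lower in control (31.8%, against 21.5% of all genes) and 13 of 22 in CKO oligodendrocytes (59.1%, against 20%). With quantile normalization these were 8 of 22 (36.4%, against 30.3%) and 9 of 22 (40.9%, against 29%). Eif3i differed by -0.93 (adjusted p = 0.000355) in control and -1.03 (adjusted p = 0.000315) in CKO oligodendrocytes, and the helicase Eif4a2 was the higher gene, by 0.72 (adjusted p = 0.0154) and 0.82 (adjusted p = 0.0124), which did not pass without OPC replicates 1 and 4 (0.31 and 0.42, adjusted p = 0.141 and 0.076). The proteins of the mitochondrial ribosome, a separate particle, were lower in a share near that of all genes. Of 76 tested, 18 were lower and 3 higher in control oligodendrocytes (median -0.16), which makes 23.7% lower against 29.6% of all genes, and 24 were lower and 0 higher in CKO oligodendrocytes (median -0.18), or 31.6% against 26.8%. Without OPC replicates 1 and 4 the shares were 15.8% against 21.5% and 21.1% against 20%. Mrpl52 had the largest fall of these, of -1.79 (adjusted p = 6.04e-05) and -1.85 (adjusted p = 8.64e-05).

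**Figure D5:**
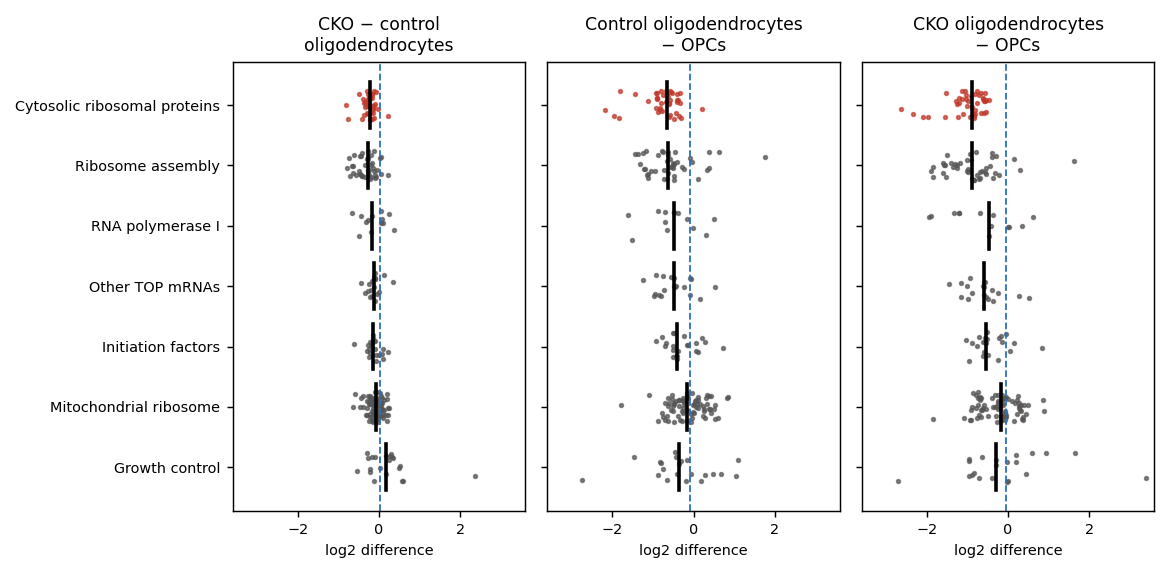
Log2 difference of every tested gene (points) of 7 lists in the 3 comparisons, with the list's median as a black bar and the median of all genes as a dashed line. In control and CKO oligodendrocytes minus OPCs the medians of ribosomal proteins (-0.66 and -0.90) and ribosome assembly (-0.64 and -0.89) lie farther left than that of mitochondrial ribosomal proteins (-0.16 and -0.18).

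Among 21 genes of growth control, 8 were lower and 1 higher in control oligodendrocytes than in OPCs, and 7 were lower and 2 higher in CKO oligodendrocytes. The shares lower, 38.1% and 33.3%, were not far from those of all genes (29.6% and 26.8%). Without OPC replicates 1 and 4 the counts were 8 (38.1%, against 21.5% of all genes) and 6 (28.6%, against 20%). Eif4ebp1, an inhibitor of translation initiation that mTOR phosphorylates, averaged 324 ± 134 on CKO arrays, 317 ± 115 on control arrays and 2726 ± 1646 on OPC arrays (SD, n = 3, 4 and 4), with log2 differences of -2.74 (adjusted p = 0.00178) in control and -2.71 (adjusted p = 0.00322) in CKO oligodendrocytes. The differences were -1.98 and -1.95 without OPC replicates 1 and 4. Eif4ebp2, a related inhibitor, differed by -1.47 (adjusted p = 0.000106) and -0.97 (adjusted p = 0.00263). Larp1, which binds the TOP tract, differed by -0.87 (adjusted p = 0.00487) and -0.97 (adjusted p = 0.00449), and by -0.54 and -0.64 without OPC replicates 1 and 4. Mxi1, which opposes Myc, was higher by 1.08 (adjusted p = 0.0112) in control and 1.64 (adjusted p = 0.00177) in CKO oligodendrocytes, and the call in control oligodendrocytes was lost without OPC replicates 1 and 4 (0.63, adjusted p = 0.136). Mycl, a relative of Myc, was higher in CKO oligodendrocytes than in OPCs (log2 difference of 3.41, adjusted p = 0.00238). It averaged 1532 ± 62 on CKO, 313 ± 136 on control and 245 ± 342 on OPC arrays, and its OPC arrays ran from 31.5 to 755. The difference of CKO oligodendrocytes from OPCs was 2.31 (adjusted p = 0.023) without OPC replicates 1 and 4.

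In the comparison of CKO with control oligodendrocytes, 0 genes of these companion lists passed in either direction (limma), and 8 of 43 ribosome assembly genes and 4 of 21 growth control genes had an unadjusted p under 0.05, where 21.2% of all genes did. The assembly list had a median of -0.28, with 39 of 43 negative, and growth control one of 0.16. In growth control, 7 of 21 genes were higher in CKO without overlap (33.3%, against 17.4% of all genes) and 1 lower (4.76%, against 14.2%). Mycl, which did not pass, ran from 1473 to 1596 on CKO and from 127 to 418 on control arrays. Summed signals of dividing-cell markers were 32433 to 142500 on OPC arrays, above those of all oligodendrocyte arrays given earlier, and their part in any of the differences from OPCs was not tested.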

How the data were processed

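RNA of cultured cells was hybridized to 11 Affymetrix Mouse Genome 430 2.0 arrays. Per the submitters' processing notes, GCOS 1.3 and MAS5 gave the deposited values, which are signal intensity on a linear scale. Each array had the same trimmed mean signal, near 500, as tested on the file. Groups came from the sample titles. Of 45101 probe sets, 34958 carried 1 gene symbol, 932 several and 9211 none in the platform annotation, and 34754 symbols were updated through the Entrez identifier. No array was left out, and 64 control probe sets were not tested. The number of arrays limits the precision.

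Probe sets with a signal of 200 or more on at least 3 arrays were kept (18628, of which 17121 with 1 gene), the probe set of highest mean log2 signal stood for a gene, and log2(signal + 16) was fitted with limma 3.58.1 in R 4.3.3 (lmFit, eBayes with trend, a mean per group over all 11 arrays), with Benjamini-Hochberg adjustment over 10069 genes and a threshold of 0.05. Fold changes on this scale understate the change of dim genes. The fit was tested on simulated data. Promoter letters were counted in Python 3.11.15.

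Same-numbered CKO and control arrays correlated at 0.242, 0.241 and 0.214 in their deviations from the group means over all genes, so their numbers were taken as pairs. The labels do not say what a number marks, and some unlike-numbered arrays also correlated (CKO 3 with control 4 at 0.328, CKO 2 with control 1 at 0.159 and CKO 1 with control 2 at 0.14). Alternatives were other pseudocounts, scalings, filters and choices of probe set, fits of 2 groups, the replicate block, and leaving out arrays. Those of the subunit and companion lists were added after the data were seen. The members and gene lists were chosen with earlier results of these data known. Genes were named by a rule: a panel of stalk, paralogue and well-studied members, the 8 largest falls past the threshold in each comparison (the 3 largest differences where fewer than 3 passed), genes whose probe sets spanned over 1, the 8 genes of most similar profile, and up to 3 genes of each other list in each direction. The genes named only in a list of calls, and Rps15, Rps24, Rpl35 and Rpl37a, fall outside it and were chosen after their values were seen.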

Additional observations from a re-analysis of the deposited data

Results flagged for a closer look

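In 7 of 42 groups of 4 arrays tested, for 20 named genes and the median of the members in the control and OPC groups, 1 array lay far from the other 3 of its group, by the share of the group's range that separates it from its nearest neighbour; chance gives about 1 in 20. Control replicate 3 was the high array of its group for Rpl22 (0.972 of the range, at 13866 against 9810 to 9906), Rps20 (0.947), Rpl12 (0.914), Rpsa (0.911, at 16016 against 11304 to 11660) and Rps14 (0.896). All 5 are values of the same array. Control replicate 2 was high for Rps6 (0.837, at 1574 against 626 to 729). OPC replicate 3 was low for Rpl39 (0.873, at 109 against 235 to 262).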

How the results depend on the processing

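With the replicate block, 15 members were lower in CKO than in control oligodendrocytes, against 0 without it. The block fits also left out the third group and any array without a same-numbered partner. With only the CKO and control arrays and no block, 0 members were called. With the block, 32 and 33 members were lower in control and CKO oligodendrocytes than in OPCs, against 25.1% and 15.4% of all genes. In these comparisons same-numbered arrays did not all correlate. With quantile normalization 21 members were lower in control oligodendrocytes than in OPCs (median -0.30), and the median of CKO oligodendrocytes minus OPCs was -0.42; the cause was not tested. Each probe set as a feature gave 56 and 64 lower of 85 member probe sets, rather than of 42 genes, where 25.5% and 23.3% of all probe sets were lower. Leaving out 1 array at a time gave 0 to 0 calls and medians from -0.29 to -0.16 for CKO minus control, 30 to 37 calls and -0.77 to -0.52 for control minus OPC, and 33 to 40 calls and -1.003 to -0.819 for CKO minus OPC. The share of all genes lower then ran from 24.6% to 32.8% for control minus OPC and from 20.6% to 30.6% for CKO minus OPC. Over the named genes and alternatives, the direction and side of the threshold stayed in 320, 386 and 380 cases for these comparisons. The difference of Rps27l in CKO minus control turned to 0.058 with quantile normalization, and leaving out 1 array moved it from -0.122 to 0.024, above 0 without CKO replicate 3 or control replicate 3. Leaving out 1 array moved that of Rpl39 in control minus OPC from -0.077, without OPC replicate 3, to 0.309, and it was 0.513 without OPC replicates 1 and 4 together. Members measured near the level of 200, such as Rpl39, Rpl12 and Rpl27a, are limited most by dim signal.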
